A study of Mus musculus with 9 samples.

Results

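The genes of cholesterol and fatty acid synthesis were followed in ear epidermis of mice with imiquimod-induced psoriasis-like inflammation. The set had 35 genes, taken by their symbols out of the 52550 genes of the deposited count table. It comprised 18 genes of the cholesterol route, 6 genes of sterol sensing and transport and 11 genes of fatty acid synthesis, elongation and desaturation. All 35 were found on exactly 1 row each, and all 35 passed the low-count filter of every comparison.

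RNA was sequenced from intact epidermal sheets of the ears of 8-week-old wild type C57BL/6 mice (C57BL/6J in the study's methods), in 3 groups of 3 libraries. In the VAS + H2O group, Vaseline was spread on the skin for 5 days and double-distilled water was given by gavage for 10 days. The IMQ + H2O group received imiquimod (IMQ), a Toll-like receptor agonist that evokes psoriasis-like dermatitis in mice, in place of Vaseline, with the same water gavage. The IMQ + XYF group received imiquimod and, by the same gavage schedule, Xiao-Yin-Fang (XYF), a decoction of plant drugs, at 23.3 mg/g in 200 µl. In all 3 groups the topical treatment fell on the last 5 days of the gavage. The study's methods name RNA from a pair of mice, and its figure legend gives n = 3 for each group. How the animals map to the libraries is not said. The p-values below therefore measure only the spread between these libraries, which may be technical. Dermal sheets were not analysed here.

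Total counts ran from 30298275 to 64771160 per library, and the 35 genes together took 0.670% to 1.24% of the counts. Levels are given as CPM, read counts scaled to the library total after TMM correction, and 3 counts corresponded to 0.0463 to 0.099 CPM. All 10 keratinocyte markers were detected in every library, with a summed level of 38770 to 63640 CPM. Of 10 adipocyte markers, Plin4 and Lipe were at 11.4 to 25 CPM in every library and Adrb3, Cidec and Cfd at up to 3.06 CPM, while Adipoq, Plin1, Lep, Retn and Pck1 were at or near 0 outside IMQ + XYF replicate 1 and were not tested between IMQ + H2O and VAS + H2O. The summed level of the 10 was 33.8 to 50.6 CPM in VAS + H2O, 33.2 to 49 CPM in IMQ + H2O and 32.4 to 50.7 CPM in IMQ + XYF, and IMQ + XYF replicate 1 was the library with all 10 at 3 counts or more, with Adipoq at 1.71 CPM. VAS + H2O replicate 2 stood apart from the other controls, with 814 CPM of 10 dermal fibroblast markers against 207 and 285 CPM, 513 CPM of 12 cartilage markers against 220 and 240 CPM, and 267 CPM of 8 skeletal muscle markers against 6.87 and 8.48 CPM. IMQ + H2O replicate 3 stood apart in myeloid markers, with Csf3r at 38 CPM against 0.173 and 0.858 CPM and Itgam at 19.3 CPM against 1.83 and 6.19 CPM in the other libraries of its group, and IMQ + XYF replicate 1 had 22.9 CPM of Csf3r against 1.33 and 6.1 CPM.

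Cells make cholesterol from acetyl-CoA through the mevalonate pathway, and fatty acids from the same precursor through acetyl-CoA carboxylase and fatty acid synthase. Both routes are controlled by the sterol regulatory element binding proteins (SREBPs), membrane-bound transcription factors that SCAP escorts to the Golgi when sterols are scarce and that INSIG proteins hold back when sterols are plentiful. SREBP-2, from Srebf2, mainly drives cholesterol genes, and SREBP-1c, from Srebf1, mainly drives fatty acid genes. Srebf1 itself is also induced by the liver X receptors, which sense oxysterols. In the epidermis, keratinocytes make cholesterol and fatty acids for the lamellae of the barrier, and sebaceous glands make lipids for sebum.

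The gene-sense sequences ahead of transcription starts are shown for Srebf1, Acss2 and Scd3, whose mRNAs fell under imiquimod, and for Hmgcs1, the first committed enzyme gene of the cholesterol route, which did not pass the test. They come from RefSeq promoter windows (build GRCm38.p6, 250 bases before to 50 bases after a start), which were found for 28 of the 35 members, and only the stretch free of annotated exons is printed. Capitals mark letters that match CCAAT (bound by NF-Y), GGGCGG (the GC box, bound by Sp1), TCACNCCAC (a sterol regulatory element) or CACGTG (the E-box) on either strand. RefSeq gives 3 starts of Srebf1, of which the first and the last in the direction of transcription are shown; the window of the middle one, at chr11:60220578-60220877, had GC boxes at -36, -14 and 8 and no CCAAT. The Srebf1 stretches at chr11:60222582-60222831 and chr11:60210466-60210721 are on the minus strand, those of Acss2 at chr2:155517793-155517947, Scd3 at chr19:44203038-44203268 and Hmgcs1 at chr13:119690101-119690378 on the plus strand.
Srebf1, first start: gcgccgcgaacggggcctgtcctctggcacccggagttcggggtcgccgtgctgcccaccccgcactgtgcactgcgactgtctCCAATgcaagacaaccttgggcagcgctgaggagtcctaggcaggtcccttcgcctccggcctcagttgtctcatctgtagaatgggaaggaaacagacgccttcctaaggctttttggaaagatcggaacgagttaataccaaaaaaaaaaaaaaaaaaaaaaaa
Srebf1, last start: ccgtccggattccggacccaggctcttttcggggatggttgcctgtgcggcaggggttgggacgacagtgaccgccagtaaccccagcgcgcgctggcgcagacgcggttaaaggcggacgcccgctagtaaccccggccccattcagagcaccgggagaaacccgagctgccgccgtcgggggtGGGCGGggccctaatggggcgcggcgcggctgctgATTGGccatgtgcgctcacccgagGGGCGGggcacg
Acss2: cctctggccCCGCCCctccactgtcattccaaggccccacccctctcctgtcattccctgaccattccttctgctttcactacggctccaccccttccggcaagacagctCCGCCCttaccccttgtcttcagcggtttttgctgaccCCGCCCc
Scd3: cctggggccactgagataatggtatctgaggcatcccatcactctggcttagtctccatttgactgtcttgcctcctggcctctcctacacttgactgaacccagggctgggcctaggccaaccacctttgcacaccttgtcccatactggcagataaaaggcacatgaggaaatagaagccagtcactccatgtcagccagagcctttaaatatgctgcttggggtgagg
Hmgcs1: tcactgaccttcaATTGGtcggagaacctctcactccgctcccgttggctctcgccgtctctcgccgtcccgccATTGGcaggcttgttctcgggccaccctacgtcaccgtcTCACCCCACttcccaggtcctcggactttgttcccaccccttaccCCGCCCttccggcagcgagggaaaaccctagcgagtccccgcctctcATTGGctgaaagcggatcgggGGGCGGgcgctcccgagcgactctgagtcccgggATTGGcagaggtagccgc
The Hmgcs1 window held the one exact match to TCACNCCAC among the members, at base -137 from the start, with CCAAT matches at -237, -176, -45 and 10. Sterol regulatory elements with other letters were not searched, so windows without this match may still hold one. The last Srebf1 start had a CCAAT match at -30 between GC boxes at -65 and -6. The window of Scd3 held none of the searched motifs, and the window of Msmo1, another gene that fell, had CCAAT matches at -160, -96 and -55. CCAAT was found in a window of 22 of the 28 members (78.6%), against 41.1% of all 27025 genes with a window. By arm it was found for 14 of 15 cholesterol synthesis genes and for 4 of 8 fatty acid synthesis genes. The GC box was found for 23 of 28 members (82.1%) against 38.2% of all genes, the E-box for 5 of 28 (17.9%) against 8.09%, and the sterol regulatory element for 1 of 28 (3.57%) against 1.44%. The liver X receptor DR4 motif was searched only as an exact repeat. In that form it was found in no member's window and for 0.0148% of all genes. Liver X receptor elements with other letters were not searched, so the members' windows, those of Srebf1 included, may still hold one. All matches describe letters in short windows and do not show binding. The 27025 genes were not limited to those expressed in these libraries, whereas all 35 members passed the low-count filter. The shares therefore do not set the members apart from other expressed genes.

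The first comparison asked how imiquimod changed the lipid synthesis genes when no XYF was given (IMQ + H2O against VAS + H2O). Genes of fatty acid synthesis made up most of those that fell, 5 of 11, while 1 of 18 genes of the cholesterol route passed the test. Of the 35 members, 8 were lower and 0 were higher at an adjusted p of at most 0.05 by edgeR's quasi-likelihood test, with p-values adjusted over all 18009 genes tested. They were the stearoyl-CoA desaturases Scd1, Scd2 and Scd3, the fatty acid desaturase Fads2, the acetyl-CoA synthetase Acss2, the regulator Srebf1, the sterol transporter Stard4 and the cholesterol enzyme Msmo1. Over all genes tested, 9.41% were lower and 12.7% were higher by the same rule. At an unadjusted p below 0.05, 13 members differed, Sqle and Ebp being the higher ones, against 37.9% of all genes, a share close to that of the members. DESeq2 also called 0 members higher. The larger cut-off for a differentially expressed gene (DEG), which adds a log2 fold change of 1 or more in size, was passed by 3 members, Scd1, Scd3 and Fads2, all lower, against 4.04% of all genes. In bulk sheets, fewer cells of a type and less RNA per cell cannot be told apart.

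Over all genes, the 3986 calls fell to between 1446 and 3077 when single libraries were left out, with fewer samples in each fit. The members' count of 8 fell as well. It became 4 without VAS + H2O replicate 1, 3 without VAS + H2O replicate 2, 7 without VAS + H2O replicate 3, 6 without IMQ + H2O replicate 1, 5 without IMQ + H2O replicate 2 and 3 without IMQ + H2O replicate 3. Srebf1 and Scd2 passed in all of these 6 fits. The members' median log2 fold change was -0.11 and that of all genes tested was -0.03.

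**Figure D1:**
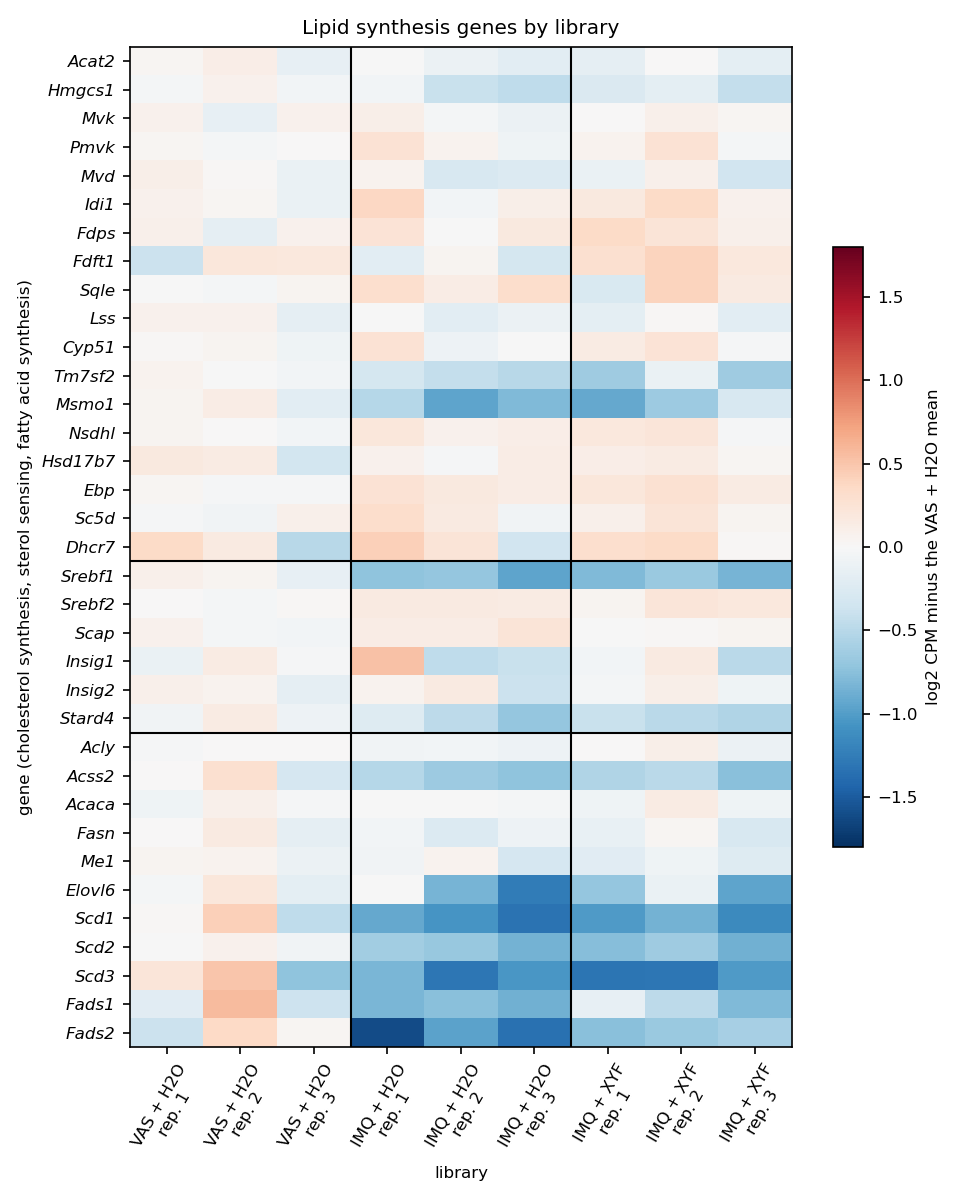
Log2 CPM of the 35 genes (rows, in pathway order, with lines between cholesterol synthesis, sterol sensing and fatty acid synthesis) in each of the 9 libraries (columns), minus the mean of the 3 VAS + H2O libraries. Blue is below and red above that mean. The rows of Msmo1, Srebf1, Stard4, Acss2, Scd1, Scd2, Scd3 and Fads2 are lower in all 6 imiquimod libraries than in any control. So is the row of Tm7sf2, which did not pass the test. The share of all genes separated in this way was not counted. Apart from Tm7sf2, these genes were chosen by the test of IMQ + H2O against VAS + H2O, so their separation there is no further support.

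In the cholesterol route, 1 of 18 genes passed the test, and the median log2 fold change of the 18 was 0.04, with a range of -0.76 to 0.24. Msmo1 encodes the methylsterol monooxygenase that starts removal of the C4 methyl groups from lanosterol-derived sterols (chr8:64718139-64733792, GRCm38). It was at 260, 277 and 221 CPM in the VAS + H2O libraries, 177, 130 and 145 CPM in the IMQ + H2O libraries, and 133, 161 and 206 CPM in the IMQ + XYF libraries. All 3 controls were above all 6 imiquimod libraries. Between IMQ + H2O and VAS + H2O its log2 fold change was -0.76 ± 0.14 (SE, n = 3 per group; edgeR adjusted p = 0.0153), which is 0.59 of the control level. The call was lost without VAS + H2O replicate 2 (edgeR adjusted p = 0.0522).

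The genes on either side of Msmo1 in the pathway did not follow it past the test. Cyp51, the lanosterol demethylase before it, had 283 ± 12.4 CPM in VAS + H2O and 294 ± 38.4 CPM in IMQ + H2O (mean ± SD, n = 3). Nsdhl, the dehydrogenase after it in the C4 demethylation complex, had 57.6 ± 1.91 and 63.1 ± 2.78 CPM, with no overlap. Hsd17b7, the ketosteroid reductase of that complex, had 153 ± 27.9 and 158 ± 8.54 CPM. Tm7sf2, a sterol reductase of low level, had 10.4, 9.89 and 9.69 CPM in the controls and 8.01, 7.41 and 7.08 CPM in IMQ + H2O. These ranges did not overlap, but the log2 fold change of -0.43 ± 0.13 stood just outside the threshold (edgeR adjusted p = 0.0526). Of the exon bases of Tm7sf2, 12.1% are shared with Vps51 on the same strand. The share of all genes whose ranges separate was not counted, so separation without a call is given here and below as description only.

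No gene of the early steps from acetyl-CoA to squalene passed the test. Hmgcs1, which makes HMG-CoA, had 791, 856 and 777 CPM in VAS + H2O and 781, 608 and 587 CPM in IMQ + H2O. The lowest control lay within the IMQ + H2O range, and the log2 fold change was -0.31 ± 0.13 (edgeR adjusted p = 0.129). Acat2, the cytosolic thiolase before it, had 93.1 ± 8.48 and 86.8 ± 5.79 CPM. The kinases and the decarboxylase of the mevalonate steps, Mvk, Pmvk and Mvd, had log2 fold changes of -0.03, 0.07 and -0.16. Idi1, the isopentenyl diphosphate isomerase, and Fdps, the farnesyl diphosphate synthase, had 0.14 and 0.13. Fdft1, the squalene synthase, had -0.18. Fdps shares 26.7% of its exon bases with Gm43738 on the same strand and Fdft1 18.3% with Ctsb on the other strand, and since the strand setting of the counting was not given, their counts are uncertain.

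The remaining steps past squalene did not pass the test either. Sqle, the squalene epoxidase, had 231, 227 and 240 CPM in the controls and 287, 254 and 289 CPM in IMQ + H2O, with no overlap and a log2 fold change of 0.24 ± 0.08 (edgeR adjusted p = 0.0807); it passed only in the fit without IMQ + H2O replicate 2 among those that left out a library. Lss, the lanosterol synthase, had 258 ± 23.7 and 241 ± 15.5 CPM. Ebp, the sterol isomerase, had 67.1 ± 1.19 and 76.6 ± 3.18 CPM, also with no overlap (log2 fold change 0.18 ± 0.07, edgeR adjusted p = 0.114). Sc5d, the sterol C5 desaturase, had 97.9 ± 5.35 and 108 ± 13.9 CPM. Dhcr7, which completes one branch of the route, varied more within groups than between them, at 175, 155 and 97.2 CPM in the controls and 185, 162 and 108 CPM in IMQ + H2O.

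Among the 6 genes of sterol sensing and transport, Srebf1 and Stard4 fell. Srebf1 (chr11:60199089-60222581, minus strand) was at 233, 226 and 196 CPM in VAS + H2O, 132, 135 and 113 CPM in IMQ + H2O, and 126, 137 and 122 CPM in IMQ + XYF. The lowest control was above the highest imiquimod library. The log2 fold change between IMQ + H2O and VAS + H2O was -0.80 ± 0.11 (edgeR adjusted p = 0.0081), or 0.574 of the control level, and it ranged from -0.84 to -0.72 when single libraries were left out. The counts do not separate the transcripts of Srebf1, so the share of SREBP-1a and SREBP-1c is not known here. Srebf2 was at 281, 274 and 284 CPM in the controls and at 313, 312 and 311 CPM in IMQ + H2O. These ranges did not overlap either, but the difference of 0.14 ± 0.07 on the log2 scale did not pass the test (edgeR adjusted p = 0.163).

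The partners of the SREBPs did not pass the test. Scap had 201 ± 10.4 CPM in VAS + H2O and 225 ± 8.28 CPM in IMQ + H2O, with no overlap. Insig1, itself an SREBP target, had 74.9, 90.4 and 80.3 CPM in the controls and 118, 59.5 and 61.6 CPM in IMQ + H2O, so that 1 imiquimod library was above and the other two were below all controls. Insig2 had 41.8 ± 3.82 and 40.6 ± 7.81 CPM. Stard4, a soluble carrier that moves cholesterol between membranes, was at 106, 123 and 105 CPM in VAS + H2O and 94.4, 80 and 68.7 CPM in IMQ + H2O, with no overlap. Its log2 fold change was -0.47 ± 0.14 (edgeR adjusted p = 0.0469). The call was lost in 5 of the 6 fits without a library, in all but the one without IMQ + H2O replicate 1 (edgeR adjusted p 0.0444 to 0.137 over the 6).

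In fatty acid synthesis, 5 of 11 genes passed the test, all lower. All 11 had negative log2 fold changes, from -1.35 to -0.03 with a median of -0.67. The enzymes that build palmitate did not pass the test. Acly, which makes cytosolic acetyl-CoA out of citrate, had 424 ± 4.84 CPM in VAS + H2O and 404 ± 6.35 CPM in IMQ + H2O, with no overlap. Acaca, the acetyl-CoA carboxylase, had 147 ± 8.25 and 145 ± 1.66 CPM. Fasn, the fatty acid synthase, had 536 ± 59.6 and 490 ± 33.8 CPM. Me1, the malic enzyme that supplies NADPH, had 182 ± 11.4 and 171 ± 21.6 CPM. The 95% intervals of their log2 fold changes lay between -0.41 and 0.15 over Acly, Acaca, Fasn and Me1.

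Of the 5 genes that fell in this arm, 4 encode desaturases. The Scd genes introduce the first double bond into stearoyl-CoA and palmitoyl-CoA, and Scd1 (chr19:44394455-44407879) was the most abundant member per exon length in every group. It was at 3680, 4890 and 2650 CPM in VAS + H2O, 1920, 1740 and 1440 CPM in IMQ + H2O, and 1780, 2020 and 1640 CPM in IMQ + XYF. Every control was above every imiquimod library, and the controls varied most among themselves. The log2 fold change between IMQ + H2O and VAS + H2O was -1.15 ± 0.24 (edgeR adjusted p = 0.0188), or 0.45 of the control level. It was -0.90 without VAS + H2O replicate 2, the highest control, and still passed (edgeR adjusted p = 0.0437), whereas the call was lost without VAS + H2O replicate 1, IMQ + H2O replicate 2 or IMQ + H2O replicate 3 (edgeR adjusted p = 0.0536, 0.0514 and 0.057).

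Scd2 (chr19:44293674-44306864) was the most even of the called members. It was at 333, 351 and 319 CPM in VAS + H2O, 217, 208 and 185 CPM in IMQ + H2O, and 196, 215 and 184 CPM in IMQ + XYF. The controls were clearly separate from both imiquimod groups. Its log2 fold change was -0.73 ± 0.09 (edgeR adjusted p = 0.00723), the smallest adjusted p of the 35 members, and it stayed between -0.74 and -0.67 when single libraries were left out. Scd3 (chr19:44203269-44244016), which is typical of sebaceous cells, was at 17.8, 21.7 and 9.17 CPM in the controls and 8.63, 6.13 and 7.36 CPM in IMQ + H2O. The lowest control, replicate 3, was close to the highest imiquimod library. Its log2 fold change was -1.15 ± 0.32 (edgeR adjusted p = 0.0445), and it passed in only 1 of the 6 fits without a library, the one without VAS + H2O replicate 3 (edgeR adjusted p 0.0197 to 0.124 over the 6). The 3 Scd genes are close copies in one stretch of chromosome 19, so part of their reads may have been assigned to another copy.

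Fads2 and Fads1 encode the delta-6 and delta-5 desaturases of polyunsaturated fatty acids and are neighbours on chromosome 19. Fads2 was at 2.73, 4.64 and 3.67 CPM in VAS + H2O, 1.14, 1.82 and 1.39 CPM in IMQ + H2O, and 2.12, 2.25 and 2.36 CPM in IMQ + XYF. The IMQ + XYF libraries lay between the other two groups without touching either. The log2 fold change of Fads2 between IMQ + H2O and VAS + H2O was -1.35 ± 0.29 (edgeR adjusted p = 0.0216), the largest fall of the 35 members, at the lowest level per exon length of all of them. The call was lost without VAS + H2O replicate 2 or 3, or without IMQ + H2O replicate 1 or 3 (edgeR adjusted p up to 0.0686). Fads1 was at 7.65, 13.2 and 6.82 CPM in the controls and at 4.97, 5.22 and 4.84 CPM in IMQ + H2O, without overlap. Its log2 fold change of -0.90 ± 0.27 missed the threshold (edgeR adjusted p = 0.0562), and DESeq2 called it lower.

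Acss2, which makes acetyl-CoA out of acetate, was at 54, 66 and 43.9 CPM in VAS + H2O, 37.6, 34.2 and 32.5 CPM in IMQ + H2O, and 37.1, 38.4 and 31.8 CPM in IMQ + XYF. No imiquimod library reached the lowest control. Its log2 fold change was -0.67 ± 0.16 (edgeR adjusted p = 0.0294), and the call was kept only without VAS + H2O replicate 3 among the fits without a library (edgeR adjusted p 0.0242 to 0.085 over the 6). Elovl6, which elongates palmitate to stearate ahead of the Scd step, was at 556, 660 and 507 CPM in the controls and 570, 319 and 238 CPM in IMQ + H2O. One imiquimod library was thus at the control level and the other two were below it. The log2 fold change was -0.63 ± 0.31 (edgeR adjusted p = 0.184), and Elovl6 passed only when that library, IMQ + H2O replicate 1, was left out.

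**Figure D2:**
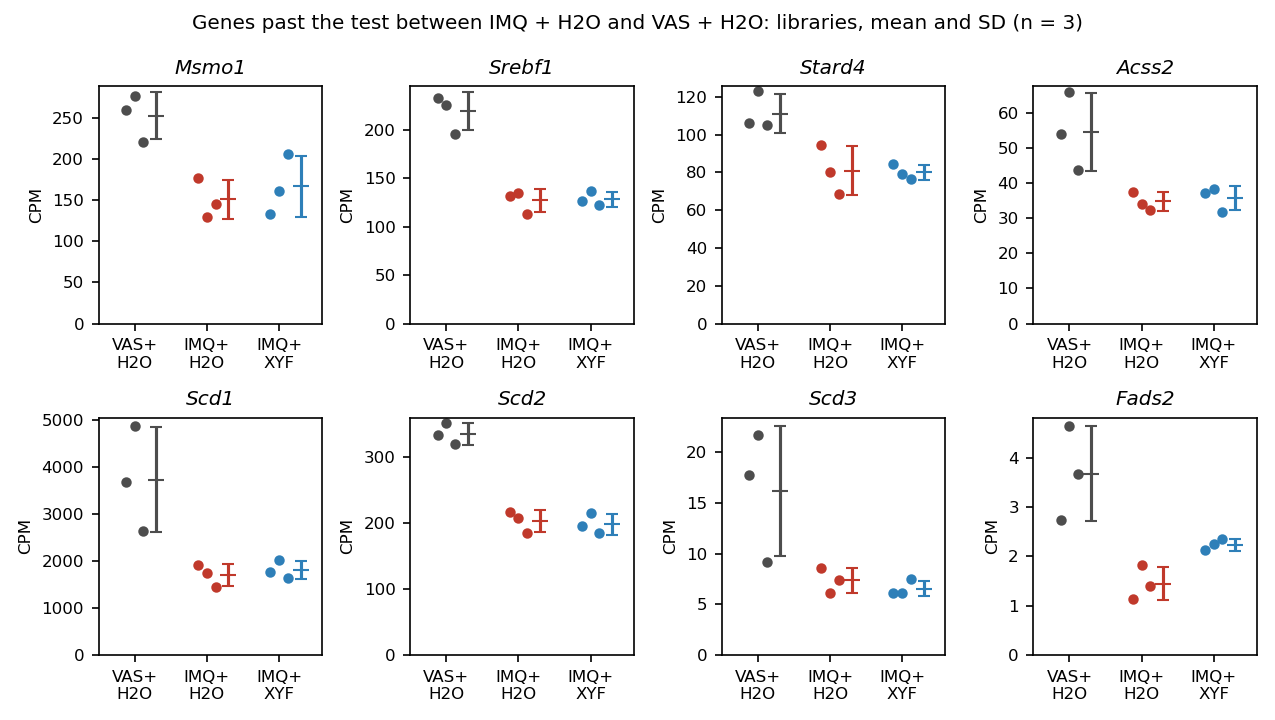
CPM (linear axes from 0) of the 8 genes past the test between IMQ + H2O and VAS + H2O, with each library as a point and the mean ± SD of 3 libraries beside it. The 3 VAS + H2O points lie above the 3 IMQ + H2O points in each panel, but the genes were chosen by the test on these libraries. That separation is therefore no further support. The IMQ + XYF points overlap the IMQ + H2O points except for Fads2, at 2.12 to 2.36 CPM.

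Markers of other cells moved in the same comparison. The summed level of 12 sebaceous gland markers was 1117, 1039 and 544 CPM in VAS + H2O and 984, 982 and 885 CPM in IMQ + H2O, with no marker at 0 in any library. Krt79 alone gave 565, 470 and 263 CPM of the control sums and 482, 614 and 539 CPM of the IMQ + H2O sums. The sums therefore say little about the markers of low level. The mean log2 CPM of the list was 3.83, 4.08 and 2.94 in VAS + H2O and 3.82, 3.33 and 3.44 in IMQ + H2O. Of these 12, Scd3 and Mogat1 fell and Dgat2l6 rose, and Awat1, Elovl3, Far2, Krt79 and Cidea did not pass the test. Within VAS + H2O, replicate 3 was lowest in the sebaceous sum, in Scd1 and Acss2, and in Scd3, which is itself in the sebaceous list. Of 10 cartilage markers tested, 9 fell, with a median log2 fold change of -2.52. Of 10 dermal fibroblast markers, 2 fell and 2 rose past the test, and 9 differed at an unadjusted p below 0.05. Their log2 fold changes were negative for 8 and positive for 2, with a median of -2.35. Of 10 proliferation markers, 3 rose past the test. All 10 had positive log2 fold changes, with a median of 1.23, and 9 differed at an unadjusted p below 0.05. Of 8 leukocyte markers tested, the T cell genes Cd3e and Cd3g fell and 0 rose, and the summed level of all 10 was 212 to 236 CPM in VAS + H2O and 167 to 278 CPM in IMQ + H2O. The highest of these sums was that of IMQ + H2O replicate 3, which was also the lowest library of its group in Scd1, Scd2, Srebf1, Stard4, Acss2 and Elovl6 and had 159 CPM of the differentiation gene Flg against 1010 and 536 CPM. The part of these cells in the members' changes was not tested; without VAS + H2O replicate 2, the control richest in fibroblast, cartilage and muscle markers, Srebf1, Scd1 and Scd2 passed and 0 members met the DEG cut-off. Without IMQ + H2O replicate 3, Srebf1, Scd2 and Msmo1 passed and 0 members met it.

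**Figure D3:**
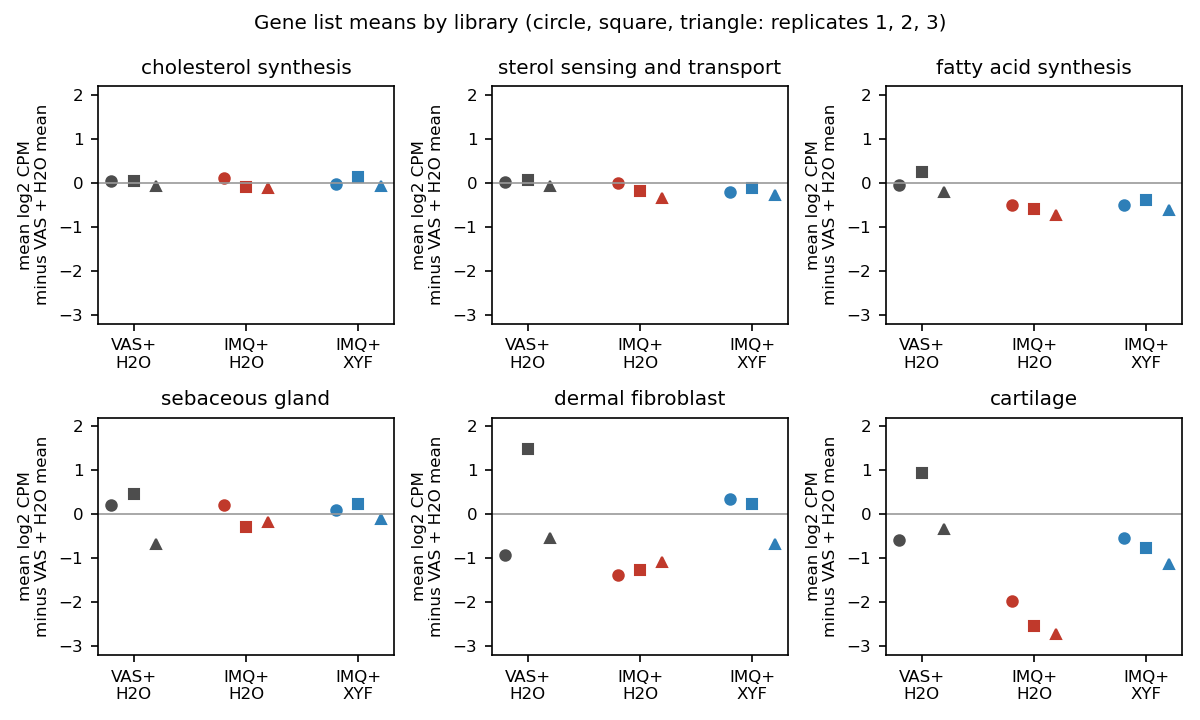
Mean log2 CPM of the genes of each list in each library, minus the VAS + H2O mean, for the 3 member lists (upper row) and 3 marker lists (lower row). The fatty acid synthesis mean is -0.50, -0.59 and -0.72 in IMQ + H2O and -0.51, -0.39 and -0.62 in IMQ + XYF, below all controls; cholesterol synthesis stays within -0.12 to 0.13; the square of VAS + H2O replicate 2 is the highest control for the dermal fibroblast and cartilage lists.

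Averaged over its genes, the cholesterol arm stayed near the control mean in every library. Its mean log2 CPM relative to VAS + H2O was 0.04, 0.03 and -0.07 in the controls, 0.10, -0.09 and -0.12 in IMQ + H2O, and -0.03, 0.13 and -0.08 in IMQ + XYF. The 3 groups overlapped. The fatty acid arm was at -0.04, 0.25 and -0.21 in the controls, -0.50, -0.59 and -0.72 in IMQ + H2O, and -0.51, -0.39 and -0.62 in IMQ + XYF. All 6 imiquimod libraries were below the controls, and the imiquimod groups overlapped each other. The sterol sensing list had -0.01, -0.20 and -0.34 in IMQ + H2O, against 0.01, 0.06 and -0.08 in the controls.

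Per kilobase of exon, Scd1 was far above the other members, at 765 ± 229 CPM per kilobase in the controls, 348 ± 48.9 in the IMQ + H2O group and 370 ± 39.2 in the IMQ + XYF group. Hmgcs1 followed with 176 ± 9.14 CPM per kilobase in VAS + H2O, and then Elovl6 with 89.3 ± 12.2 and Acly with 80.3 ± 0.917, which did not differ beyond their spread. Most of the cholesterol enzymes lay in a band of 20.1 (Sc5d) to 64.1 (Cyp51) CPM per kilobase. Below that band in the cholesterol route was Tm7sf2, at 2.27. In the fatty acid arm, Acss2, Scd3, Fads1 and Fads2 had 5.37, 4.56, 1.92 and 1.12 CPM per kilobase. The genes that fell therefore included both the most and the least abundant member.

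**Figure D4:**
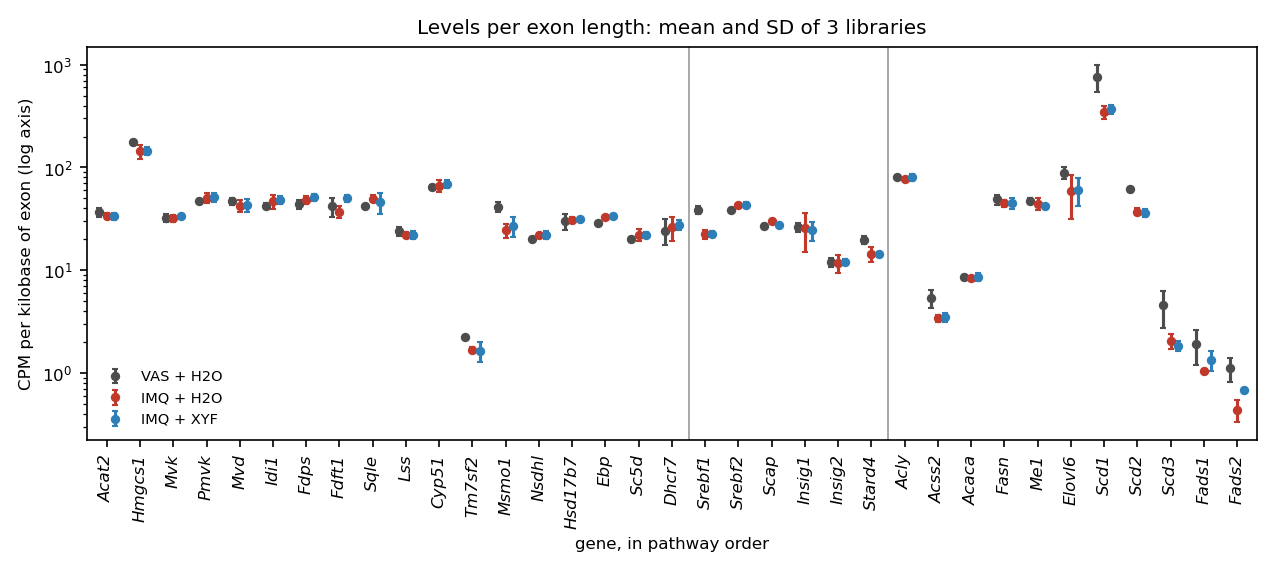
CPM per kilobase of merged exons (log axis) for the 35 genes in pathway order, as the mean with the SD of 3 libraries for each group. Scd1 is highest (765 CPM per kilobase in the controls, 348 under imiquimod with water and 370 under imiquimod with XYF), and Fads2 is lowest.

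Genes around the member pathways were counted in lists of related steps under the same test, to be read against 12.7% higher and 9.41% lower of all genes. Of 17 genes of sterol uptake, efflux and esterification, 5 were lower and 1 was higher in IMQ + H2O than in VAS + H2O. Mylip, a ubiquitin ligase that degrades lipoprotein receptors, fell to 47 ± 6.69 CPM against 88.6 ± 6.97 CPM in the controls (log2 fold change -0.93, edgeR adjusted p = 0.00832). Vldlr, a lipoprotein receptor, fell to 24.1 ± 4.15 CPM against 46.1 ± 1.17 CPM (log2 fold change -0.95, edgeR adjusted p = 0.00903). Abca1, the exporter that loads cholesterol onto apolipoprotein A-I, fell by 0.91 on the log2 scale, and Npc1, which releases cholesterol out of lysosomes, fell by 0.57. The fifth was Abcg1, another cholesterol exporter, at -0.94, and Scarb1, the receptor of high-density lipoprotein, rose by 0.90; these 2 are outside the 4 smallest adjusted p-values and were named after their values were seen. Mylip and Vldlr passed in all 6 fits without a library, whereas Abca1, Npc1, Abcg1 and Scarb1 each lost the call in 4 or 5 of them.

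Of 9 genes tested for other isoprenoid and sterol steps, 4 were higher and 0 were lower. They were Fntb, a subunit of protein farnesyltransferase, Pdss1, which makes the ubiquinone side chain, Acat1, the mitochondrial thiolase, and Rabggtb, which prenylates Rab proteins, with log2 fold changes of 0.63, 0.84, 0.29 and 0.50. At an unadjusted p below 0.05, 5 of the 9 differed, and Fntb alone passed in all 6 fits without a library. Of 17 genes tested for fatty acid elongation and activation, 2 were higher and 1 was lower, close to the shares over all genes. The elongases Elovl1 and Elovl7, which act on long saturated chains, rose by 0.67 and 0.70 on the log2 scale, to 359 ± 8.92 and 186 ± 19.2 CPM. Elovl5, the elongase of polyunsaturated chains that works with Fads1 and Fads2, fell by 0.87, to 35.6 ± 1.66 CPM against 64.5 ± 12.6 CPM. All 3 elongases passed in each fit without a library. Elovl4, the elongase of ultra-long chains, had 589 ± 39.1 CPM in VAS + H2O and 782 ± 108 CPM in IMQ + H2O (edgeR adjusted p = 0.0583).

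Of 15 genes tested for SREBP processing and regulation of lipogenesis, 2 were higher and 2 were lower, also close to those shares. Ppargc1b, a coactivator of SREBPs, rose by 1.12 on the log2 scale to 24 ± 3.66 CPM against 11 ± 0.803 CPM, and passed in all 6 fits without a library. Mlxipl, the carbohydrate response factor ChREBP, fell by 1.81 to 0.605 ± 0.216 CPM against 2.09 ± 0.887 CPM, near the limit of counting. Mbtps1, the protease that first cuts SREBPs, had a log2 fold change of -0.29, and Mid1ip1, an activator of acetyl-CoA carboxylase, had 0.98. Mlxipl and Mid1ip1 lost the call in 5 and Mbtps1 in 6 of the 6 fits without a library. Of 10 genes of triglyceride synthesis and lipid droplets, 2 were higher and 1 was lower, which again is within about 1 gene of those shares. Plin2, which coats lipid droplets, rose by 0.85 and Agpat2, an acyltransferase, by 0.66, whereas Gpam, the first acyltransferase of the pathway, had -0.52; these calls were lost in 4, 5 and 6 of the 6 fits.

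The second comparison asked whether XYF changed the same genes under imiquimod (IMQ + XYF against IMQ + H2O). No member passed the test between both imiquimod groups. By edgeR's quasi-likelihood test 0 of 35 passed, against 0.0281% of the 17793 genes tested (5 genes). At an unadjusted p below 0.05, 2 members differed, against 5.43% of all genes, about the same share, and DESeq2 called 0 members while calling 166 genes in all. The members' log2 fold changes ran from -0.16 to 0.63, with medians of 0.03 in the cholesterol arm and 0.05 in the fatty acid arm, against 0.00 over all genes.

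For the genes that had fallen under imiquimod, the intervals of the XYF difference were narrow for some and wide for others. Scd2 differed by -0.03 on the log2 scale (95% interval -0.24 to 0.19), Srebf1 by 0.03 (-0.19 to 0.24) and Scd1 by 0.10 (-0.21 to 0.41). The imiquimod changes of the same genes, -0.73, -0.80 and -1.15, were larger in size than the bounds of these intervals. Both sets of values use the same IMQ + H2O libraries, and the genes were chosen by the first comparison, so they are not independent. Acss2 differed by 0.05 (-0.20 to 0.30), Stard4 by -0.01 (-0.30 to 0.27), Msmo1 by 0.15 (-0.28 to 0.58) and Scd3 by -0.16 (-0.57 to 0.24). Elovl6 had the widest interval, -0.76 to 0.88.

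The 2 members with an unadjusted p below 0.05, about as many as the share over all genes gives, were Fads2 and Fdft1. Fads2 was at 1.14, 1.82 and 1.39 CPM in IMQ + H2O and at 2.12, 2.25 and 2.36 CPM in IMQ + XYF, with a log2 difference of 0.63 ± 0.23 (edgeR adjusted p = 0.817). Fdft1, the squalene synthase, was at 152, 180 and 140 CPM in IMQ + H2O and at 212, 231 and 198 CPM in IMQ + XYF, with a log2 difference of 0.45 ± 0.11 (edgeR adjusted p = 0.498). In both genes every XYF library was above every IMQ + H2O library. They were picked by their unadjusted p on these same libraries, so this separation adds no support. The controls of Fdft1, at 133, 200 and 199 CPM, spanned both groups, and its exons overlap those of Ctsb on the other strand. Fads1 had a difference of 0.38 ± 0.19. Cartilage markers, 10 of 10 with positive values and a median of 1.41, and dermal fibroblast markers, 10 of 10 with a median of 1.19, moved with the XYF group, with 1 cartilage marker and 0 fibroblast markers past the test; at an unadjusted p below 0.05, 9 markers of each list differed. Their part in the member values was not tested.

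**Figure D5:**
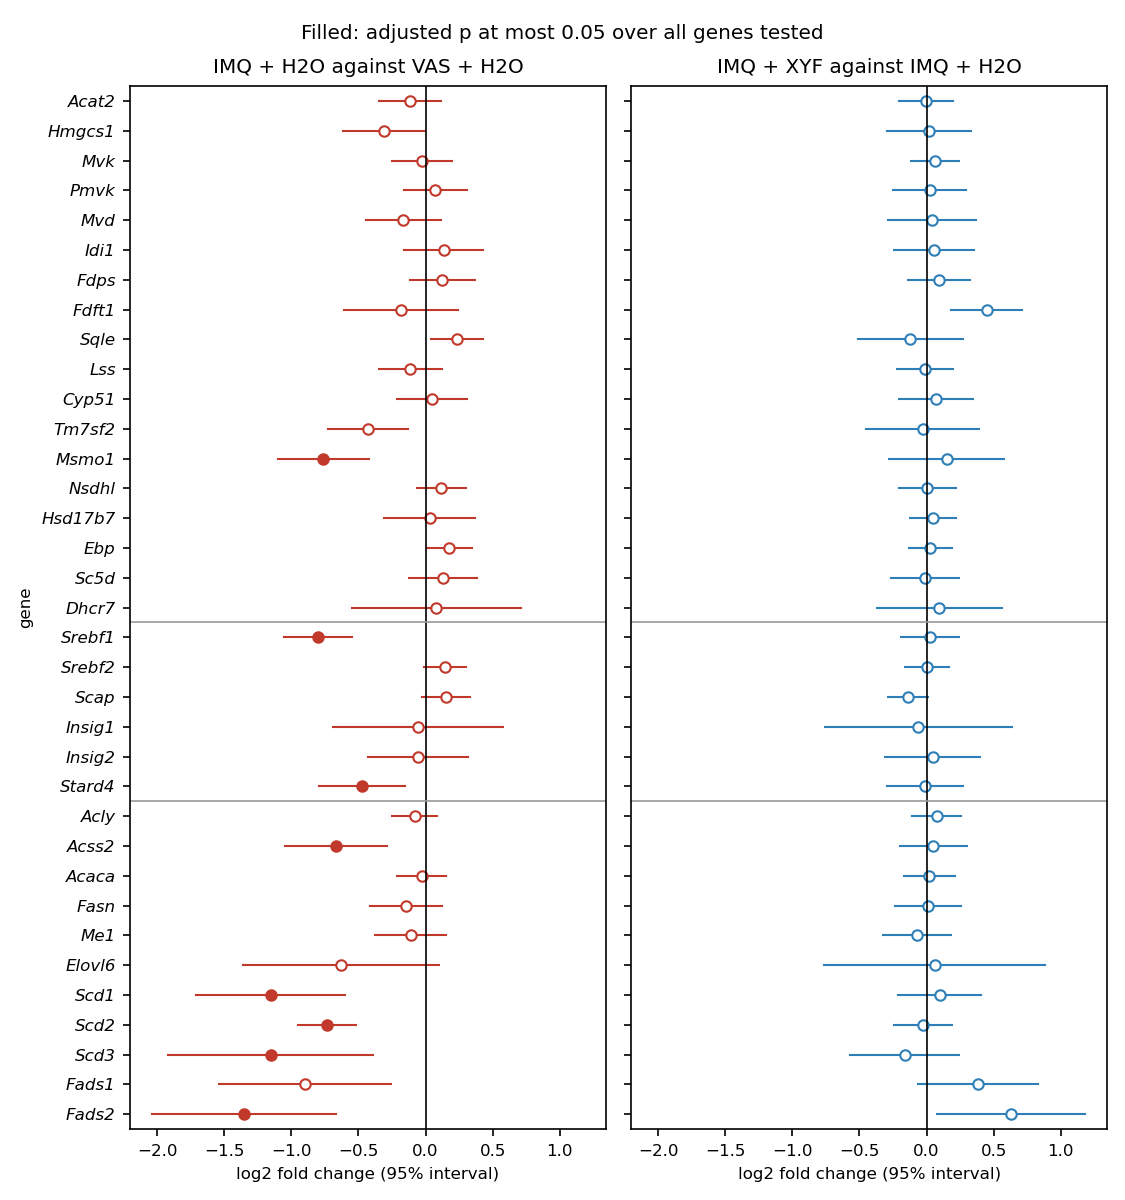
Log2 fold change of each of the 35 genes with its 95% interval (edgeR, 3 against 3 libraries) for IMQ + H2O against VAS + H2O (left) and IMQ + XYF against IMQ + H2O (right), with filled points for adjusted p at most 0.05. On the left 8 points are filled, all below 0; on the right none is, and Fads2 at 0.63 and Fdft1 at 0.45 are the points farthest above 0.

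The last comparison set the XYF group against the Vaseline controls (IMQ + XYF against VAS + H2O). It shares the VAS + H2O libraries with the first comparison and the IMQ + XYF libraries with the second, so its values are independent of neither. Of the 35 members, 7 were lower and 1 was higher, against 12% lower and 16.7% higher of the 17954 genes tested. The 7 were Msmo1, Srebf1, Stard4, Acss2, Scd1, Scd2 and Scd3, and the one that was higher was Ebp. At an unadjusted p below 0.05, 12 members differed, against 41.3% of all genes. Of the marker lists, 10 of 10 proliferation markers rose, and of 9 leukocyte markers 1 rose and 2 fell. Between both imiquimod groups, 0 of the 10 proliferation markers differed at an unadjusted p below 0.05, although all 10 had positive log2 fold changes, with a median of 0.32. The part of these markers in the member values was not tested. Scd1 and Scd3 met the DEG cut-off (3.05% of all genes did so downward). Side by side, the log2 fold changes in IMQ + H2O and IMQ + XYF against VAS + H2O were -0.80 and -0.77 for Srebf1, -0.73 and -0.75 for Scd2, -1.15 and -1.05 for Scd1, and -1.15 and -1.31 for Scd3. They were -0.76 and -0.60 for Msmo1, -0.67 and -0.61 for Acss2, -0.47 and -0.48 for Stard4, and -1.35 and -0.71 for Fads2.

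Among the calls of this comparison, Srebf1, Stard4 and Scd2 had the smallest adjusted p-values (edgeR adjusted p = 0.00188, 0.00789 and 0.00158), and they passed in all 6 fits without a library. Ebp was at 68.5, 66.4 and 66.4 CPM in VAS + H2O and 77.6, 81.3 and 74.5 CPM in IMQ + XYF, a log2 fold change of 0.21 ± 0.06 (edgeR adjusted p = 0.0421) that was lost in all 6. The number called was 5 without VAS + H2O replicate 1, 4 without VAS + H2O replicate 2 and 7 without VAS + H2O replicate 3. It was 3 without IMQ + XYF replicate 1 and 4 without IMQ + XYF replicate 3. Without IMQ + XYF replicate 2, 4 members kept the call and Elovl6 and Tm7sf2 gained it. Over all genes, the 5152 calls fell to between 3221 and 4544 in these fits. Fads2, called between IMQ + H2O and VAS + H2O, was not past the test here (edgeR adjusted p = 0.0612), although it was called without VAS + H2O replicate 1 and by DESeq2, which called 11 members here, adding Fads2, Elovl6 and Hmgcs1. The difference of Fads2 between both imiquimod groups had not passed.

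The members also varied from library to library inside the groups. After subtracting each group's mean, pairs of members were compared over the 9 libraries by Pearson's r, as a description; all pairs share the libraries and their scaling. The highest values were 0.98 for Hmgcs1 with Insig1, 0.976 for Insig2 with Me1, 0.974 for Pmvk with Ebp and 0.967 for Acss2 with Scd1, and Hmgcs1 with Elovl6 had 0.959. In IMQ + H2O, for example, replicate 1 had the highest Hmgcs1 (781 CPM), Insig1 (118 CPM) and Elovl6 (570 CPM) of its group. The median r within groups was 0.451 over the 153 pairs of the cholesterol arm, 0.551 over the 55 pairs of the fatty acid arm and 0.05 over the 15 pairs of the sterol sensing list. No median over pairs of other genes was taken for comparison, so these values do not show that the members vary together more than other genes. Without the subtraction, the 5 genes outside the set whose log2 CPM was most like the mean of the cholesterol genes over the 9 libraries, of 18457 compared, were Suz12 (r = 0.929), Gm44270 (0.919), Ech1 (0.911), Atg4d (0.905) and Reep6 (0.895).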

How the data were processed

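RNA of 9 epidermal libraries was analysed, 3 per group, grouped by their titles. The values deposited by the authors are raw counts per gene, with Ensembl identifiers and symbols. The submitters' processing notes name STAR 2.5, DESeq 1.22.1, Cuffnorm and FastQC, and the study's methods name TruSeq libraries, a HiSeq sequencer, STAR, the mouse genome GRCm38 with Ensembl release 90, StringTie and DESeq2. The tool that counted reads and its strand setting are not given in the sources used here, so counts of overlapping or antisense genes are uncertain. Total counts per library were 30298275 to 64771160, and 3 counts stood for at most 0.099 CPM.

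For every comparison only its 6 libraries entered the fit, made with edgeR 4.0.16 (R 4.3.3, limma 3.58.1): filterByExpr, TMM scaling, the quasi-likelihood test, and Benjamini-Hochberg adjustment over all genes tested. A gene passed the test at an adjusted p of at most 0.05, and was a DEG if its absolute log2 fold change was also at least 1. Log2 CPM used a prior count of 2. Group levels are means ± SD, fold changes carry SEs. The scripts were tested on simulated data. Alternatives were DESeq2 1.42.0, RLE size factors, all genes kept whatever their counts, a minimum of 10 counts per library, one fit of all 9 libraries, the replicate number as a block, and leaving out each library. Positions and exon lengths came from GENCODE M21 (GRCm38), promoter windows from RefSeq (GRCm38.p6).

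The members, the pathway and marker lists and the tests were chosen with earlier results of these data known. By rule, all 35 members are named, with full statistics for those past the test, and of each pathway list up to 4 genes with the smallest adjusted p; other genes named were chosen after their values were seen. Libraries of a group differed by more than counting noise (mean chi-square per gene of 23.8 or more in each pair), so none was taken as a second deposit of another; this does not show that they came from separate animals.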

Additional observations from a re-analysis of the deposited data

How the results depend on the processing

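The medians of the cholesterol and fatty acid arms moved by less than the spread between replicates under every alternative run. Leaving out single libraries gave 3 to 7 members past the test and 0 to 3 DEGs between IMQ + H2O and VAS + H2O, 0 members between both imiquimod groups, and 3 to 7 members past the test and 0 to 2 DEGs between IMQ + XYF and VAS + H2O. Over all genes the calls between IMQ + H2O and VAS + H2O went from 3986 to between 1446 and 3077, those between IMQ + XYF and VAS + H2O from 5152 to between 3221 and 4544, and the 5 calls between both imiquimod groups to 0 to 5, with fewer samples in each fit. DESeq2 called 166 genes in the last of these and added Fads1 and Tm7sf2 to the 8 members of the first comparison, and Elovl6, Fads2 and Hmgcs1 to the 8 members called between IMQ + XYF and VAS + H2O. Without a low-count filter 29847 genes were tested in the first comparison, where Scd3 and Stard4 lost the call, and Ebp lost it between IMQ + XYF and VAS + H2O. RLE size factors and a minimum of 10 counts in every library gave the same 8 members in each comparison with the controls, and the fit on all 9 libraries added Fads1 to the first.

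Replicate numbers did not pair the libraries: deviations of same-numbered libraries correlated at -0.133 to 0.105, and libraries did not all correlate best with their own number. With the replicate number as a block, 6 members passed and 2 were DEGs between IMQ + H2O and VAS + H2O (Scd3 and Stard4 lost the call), 0 members and 0 genes passed between both imiquimod groups, and 6 members passed with 1 DEG between IMQ + XYF and VAS + H2O. Each fold change of a member or pathway gene called against the controls was followed under all alternatives (61 in all, 28 of them without XYF and 33 with it), and uncalled genes were not. Of the values obtained, 558 kept direction and call, 174 kept direction and lost the call, and 0 reversed. The genes were chosen by their calls and the fits share most of their libraries, so the lack of reversals is no independent support. The members of lowest level, Fads2, Fads1, Tm7sf2 and Scd3, rest on the fewest counts.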
